A study of Homo sapiens with 6 samples.

Results

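Cytosolic ribosomal proteins are the protein components of the ribosome that translates nuclear-encoded mRNAs. Their genes were taken from the deposited gene table by name: RPL, RPS and RPLP symbols followed by a number, their paralogs ending in L or L1, RPSA and FAU. The rule found 86 names in 87 rows of a table with 56418 rows, and summing the rows of the same name left 86 rows. The names comprise 46 proteins of the large subunit, 32 of the small subunit and 8 paralogs. Of these rows, 84 passed the filter of a mean of at least 1 FPKM over all 6 libraries and were tested, and those of RPL3L and RPL10L did not. FPKM counts fragments scaled to transcript length and to the size of the library, so levels of different genes below are per length.

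RNA was sequenced from 3 libraries labelled as FOXO3A (FOXO3) knockout and 3 labelled as wild-type controls, all from cells labelled U-937, a myeloid line, grown without further treatment in RPMI1640 with serum and antibiotics. FOXO3 encodes a forkhead transcription factor, and the study asked how its depletion alters gene expression. Guide RNAs were used to make the knockout cells, but the labels do not say whether these are 1 clone or a pool, or what guide the controls carry. They do not mention separate cultures either, so the spread behind each p-value may be technical.

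The targeted gene and the cell label were checked first. FOXO3 was at 3.94, 4.13 and 3.46 FPKM in the knockout libraries and at 4.22, 3.63 and 4.27 FPKM in the controls (log2 fold change −0.06, limma adjusted p = 0.732). The groups overlap, and an edit that leaves the transcript in place would not show in this value. All 8 T cell markers examined were above 1 FPKM, with sums of 671 to 731 FPKM in knockout and 662 to 728 FPKM in control libraries. By contrast, the 7 monocyte and macrophage markers with a row of their own were each below 1 FPKM, with sums of 0.164 to 0.330 FPKM in knockout and 0.0662 to 0.173 FPKM in control libraries. The markers thus go against the label of a myeloid line in both groups. Single lymphoid markers differed between the groups: DNTT, a polymerase of immature lymphocytes, fell, at 13.3, 14.4 and 12.5 FPKM in knockout and 61.2, 57.5 and 57.1 FPKM in control libraries (log2 fold change −2.05, limma adjusted p = 0.000221), and CD2 rose (log2 fold change 0.81, limma adjusted p = 0.0214). CD79A, the B lineage marker above 1 FPKM, was at 25.2, 26.7 and 32.2 FPKM in knockout and 35.6, 43.2 and 39.5 FPKM in control libraries (limma adjusted p = 0.0741). These marker differences, in both directions, lie between the same groups as those of the ribosomal protein genes described below. Their part in those results was not tested. On the first component of a principal component analysis (44.3% of the variance), the knockout libraries were at −18.4, −19.4 and −10.8. The controls were at 3.71, 31.3 and 13.6, so this component also separates the groups. The second control lay farthest out, so results are also given without it.

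Each mature ribosome holds close to equal numbers of its proteins, and surplus free ribosomal proteins are degraded. Most of their mRNAs begin with a C followed by an unbroken run of pyrimidines, the 5′ terminal oligopyrimidine (TOP) motif, through which mTOR signalling and the protein LARP1 control their translation together. The paralogs are encoded by separate genes, several of which have tissue-restricted expression in mammals. Sequences around the annotated starts are shown here because this motif is what most members share that the selection by name did not use. Each line gives 50 bases of RefSeq sequence (GRCh38.p14), 35 before and 15 from the transcription start onward, 5′ to 3′ on the gene's strand. Capitals mark the oligopyrimidine run where it begins with C at the start and holds at least 4 more pyrimidines. Where a gene has several annotated starts, as RPL34 does, a start with the run was preferred for printing.
RPL31 (chr2:101002254-101002303, plus strand): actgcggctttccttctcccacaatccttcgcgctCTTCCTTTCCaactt
RPL34 (chr4:108620541-108620590, plus strand): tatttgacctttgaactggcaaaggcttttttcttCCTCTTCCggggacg
RPS10 (chr6:34426055-34426104, minus strand): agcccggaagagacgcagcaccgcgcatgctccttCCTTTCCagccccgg
RPS12 (chr6:132814534-132814583, plus strand): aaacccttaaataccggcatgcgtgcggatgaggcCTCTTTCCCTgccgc
RPL29 (chr3:51995881-51995930, minus strand): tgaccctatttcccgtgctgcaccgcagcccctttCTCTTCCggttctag
RPL18 (chr19:48619164-48619213, minus strand): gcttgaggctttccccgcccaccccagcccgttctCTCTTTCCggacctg
RPL22L1 (chr3:170870181-170870230, minus strand): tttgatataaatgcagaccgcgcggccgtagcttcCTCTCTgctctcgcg
RPL36AL (chr14:49620612-49620661, minus strand): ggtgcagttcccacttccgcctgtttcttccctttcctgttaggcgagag
RPS27L (chr15:63157463-63157512, minus strand): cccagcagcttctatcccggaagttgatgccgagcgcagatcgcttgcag
RPL26L1 (chr5:172958694-172958743, plus strand): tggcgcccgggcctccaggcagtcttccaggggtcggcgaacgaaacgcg
RPL7L1 (chr6:42879581-42879630, plus strand): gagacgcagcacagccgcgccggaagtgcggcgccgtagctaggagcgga
RPL31, RPL34 and RPS10 are shown as members whose rows fell in the knockout, RPS12 as the highest member, RPL29 and RPL18 as members with a large and with almost no difference, and the last 5 lines are paralogs.

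Starts were available for 69 of the 86 names. RPL23, RPL23A, RPL30, RPL37, RPL39L, RPL3L, RPL5, RPL7, RPL8, RPS15A, RPS2 and RPS20 were among those with no entry. A gene was counted for a motif if any of its annotated starts had it. An oligopyrimidine start was found in 28 of 38 large subunit genes and 19 of 25 small subunit genes. For both together this was 74.6%, against 5.14% of all 27305 genes in the table. Of 6 paralogs, RPL22L1 alone had one under this rule. The run had to begin at the annotated base, so a run beginning before or after it was not counted. The RPL36AL line, for example, has pyrimidines across its start that this rule does not count. Within 250 bases before and 50 bases after the start, the ETS core CCGGAA, read on both strands, was present in 40 of 69 members (58.0%), against 20.1% of all genes. The forkhead motif GTAAACA, also on both strands, was in 0 of 69 members and 4.19% of all genes, and TATAAA was in 10.1% of members and 14.0% of all genes. These are matches of letters in a window and say nothing about binding.

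In the FOXO3 knockout libraries most ribosomal protein genes were modestly lower, in both subunits, and the 6 tested paralogs had a median log2 fold change of −0.03. Among the 84 tested rows 78 had a negative log2 fold change (knockout over control), against 46.6% of all 11162 genes tested. The median log2 fold change was −0.26, that is 0.835 of the control level, against a median of 0.02 over all genes. In 41 rows every knockout library was below every control library, which held for 14.7% of all genes, and in 0 rows was every knockout library above (17.7% of all genes). Single tests were mostly not past the threshold. By limma on log2(FPKM + 1), with p-values adjusted over all genes tested, 4 rows fell at an adjusted p below 0.05, where 1.3% of all genes fell, and 0 rose, where 1.38% of all genes rose (2.68% in either direction). At an unadjusted p below 0.05, 40 rows were lower, against 10.7% of all genes, and 0 of the 6 higher rows passed.

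**Figure D1:**
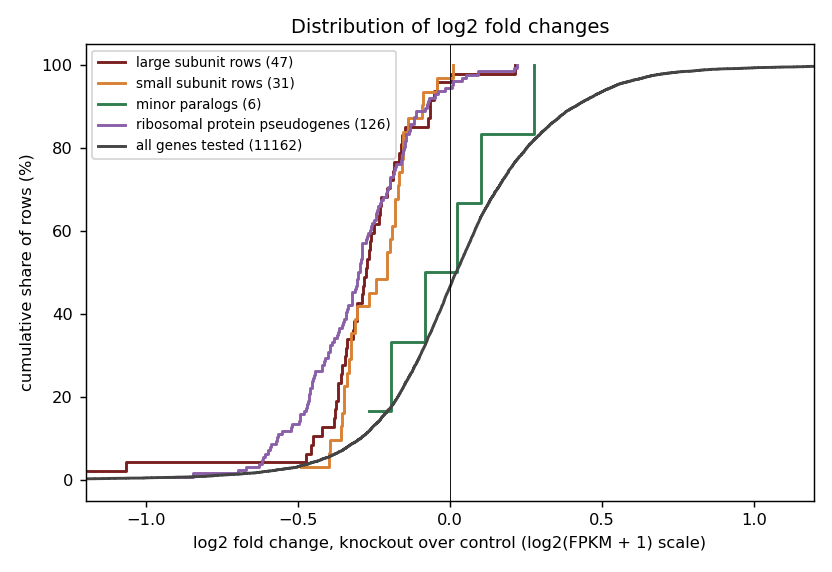
Cumulative share of rows (vertical axis) by log2 fold change of FOXO3 knockout over control (horizontal axis) for 47 large subunit rows, 31 small subunit rows, 6 paralogs, 126 ribosomal protein pseudogenes and all 11162 genes tested. The curves of both subunits and of the pseudogenes lie left of the curve of all genes, with medians of −0.28, −0.21 and −0.30 against 0.02, and the paralogs straddle 0.

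The family took a smaller share of the transcriptome in every knockout library than in any control library. Rows that name a ribosomal protein gene alone held 4.48%, 4.61% and 4.8% of the summed FPKM of the knockout libraries and 5.18%, 5.76% and 5.44% of that of the control libraries. The mean share was 4.63 ± 0.163% in knockout and 5.46 ± 0.294% in control libraries (SD, n = 3 each), a difference of −0.83 percentage points. With the shared rows counted as well, the shares were 7.79 ± 0.261% in knockout and 9.14 ± 0.382% in control libraries (SD, n = 3 each). The proportion of the subunits differed by less than the spread between libraries: the summed FPKM of the large over the small subunit was 1.1 ± 0.00392 in knockout and 1.1 ± 0.0525 in control libraries (SD, n = 3 each). In bulk RNA, less mRNA of the family per cell and more of other RNA per cell cannot be told apart.

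The second control had the highest values of the family, and the knockout libraries differed among themselves. Relative to each row's mean over the 6 libraries, the median log2 deviation was −0.19, −0.15 and −0.05 in the knockout libraries and 0.00, 0.24 and 0.11 in the controls. The second control was the highest library in 57 of the 84 rows, and the first knockout the lowest in 49. Mitochondrially encoded genes also took more of the second control, at 16.5%, 16.7% and 16.5% of summed FPKM in knockout and 16.3%, 19.6% and 15.8% in control libraries. Without those genes in the total, the family's share was 5.55 ± 0.196% in knockout and 6.6 ± 0.508% in control libraries (SD, n = 3 each). Without the second control, 76 of 84 rows were lower in the knockout, the median log2 fold change was −0.19, and 43 rows had every knockout below both remaining controls, against 21.7% of all genes.

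**Figure D2:**
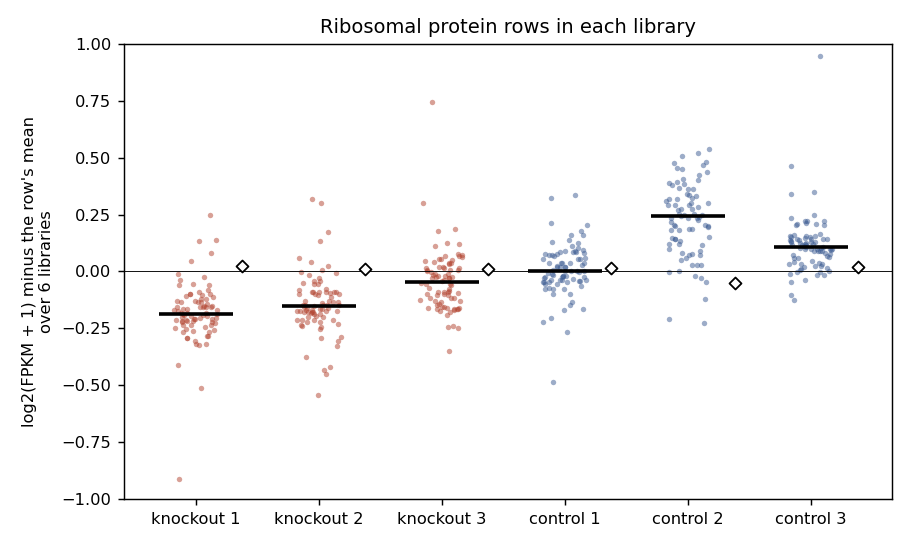
Log2 deviation of each of the 84 tested rows from its own mean over the 6 libraries (vertical axis), by library, knockout on the left and control on the right; black bars are medians of the family and open diamonds medians of all genes tested, and 2 rows have a point beyond the axis. Family medians lie at −0.19, −0.15 and −0.05 in the knockouts and at 0.00, 0.24 and 0.11 in the controls.

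Among the 47 large subunit rows, 45 were lower (46.6% of all genes) and 25 had every knockout below every control (14.7% of all genes). The median log2 fold change was −0.28. In this subunit 3 rows fell at an adjusted p below 0.05 (limma), where 1.3% of all genes fell. RPL34 (chr4:108620566-108630412, hg38), a protein of the large subunit, was at 88.3, 86.5 and 95.1 FPKM in knockout and 117, 137 and 123 FPKM in control libraries. RPL34 fell by 28.4% (log2 fold change −0.48, SE 0.08, limma adjusted p = 0.0398), and its groups do not overlap. RPL31 (chr2:101001715-101024032), which lies near the exit of the peptide tunnel, was at 83.8, 91.9 and 93.0 FPKM in knockout and 131, 123 and 115 FPKM in control libraries. RPL31 fell by 27.1% (log2 fold change −0.45, SE 0.08, limma adjusted p = 0.0402), again with no overlap. RPL7, a large subunit protein that binds ribosomal RNA, was at 429.8, 428.1 and 430.3 FPKM in knockout and 540.5, 574.1 and 517.5 FPKM in control libraries. RPL7 fell by 21.1% (log2 fold change −0.34, SE 0.06, limma adjusted p = 0.0450), and its knockout libraries lie closer together than its controls.

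These calls are close to the threshold. Without the first control they held for RPL34, RPL31, RPL7 and the RPS10 row, and with any other library left out they did not, with adjusted p up to 0.159 for RPL34, 0.139 for RPL31, 0.179 for RPL7 and 0.178 for the RPS10 row (limma). All 4 calls were also lost without a filter on low values (limma adjusted p 0.0726 to 0.105). After quantile normalization those of RPL7 (log2 fold change −0.21, limma adjusted p = 0.122) and RPL31 (−0.38, limma adjusted p = 0.0596) were lost. Their direction was the same in each of these fits. Just outside the threshold were 4 rows in which every knockout was below every control. RPL5, which with RPL11 and the 5S RNA binds MDM2, was at 185, 190 and 192 FPKM in knockout and 233, 267 and 238 FPKM in control libraries, in a row shared with its intronic SNORD21 (log2 fold change −0.37, limma adjusted p = 0.0504). The rows of RPL7A, RPL4 and RPL3 had log2 fold changes of −0.46, −0.38 and −0.31 and limma adjusted p of 0.0517, 0.0521 and 0.0546. RPL3 is a core protein near the peptidyl transferase centre. The RPL7A row also names the pseudogene EEF1A1P5 and the RPL4 row SNAPC5, so they are not values of the ribosomal protein gene alone. A separate row naming RPL4 alone, made of 1 transcript, was at the floor of 0.0001 FPKM in all 3 knockout libraries and at 0.0001, 17.0 and 2.92 FPKM in control libraries, and it is left out of the ranking of fold changes.

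**Figure D3:**
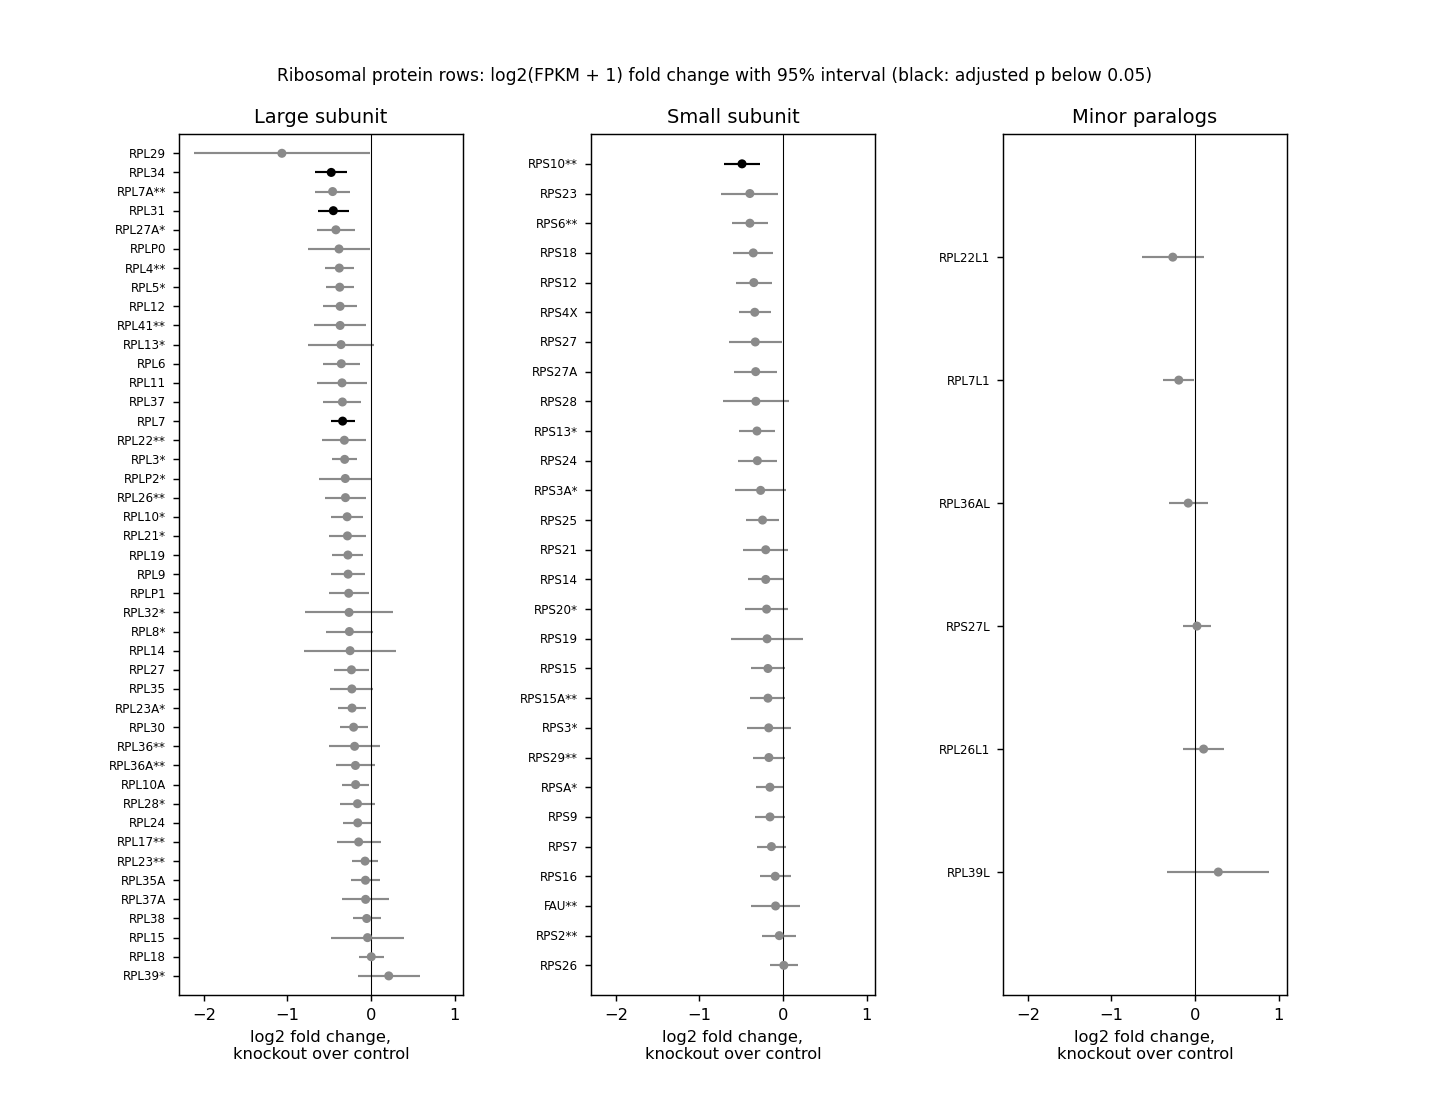
Log2 fold change of FOXO3 knockout over control with its 95% interval from limma (horizontal axis) for 78 of the 84 tested rows (the 1-transcript RPL4 row and rows not reported here are left out), by subunit; black marks rows with an adjusted p below 0.05, 1 asterisk a row shared with a small RNA and 2 asterisks a row shared with another gene. The intervals of 27 of 47 large and 12 of 31 small subunit rows (all tested rows counted) lie wholly to the left of 0, with RPL34, RPL31, RPL7 and the RPS10 row past the threshold, and RPL29 has the widest interval among the lower rows shown.

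Levels differed widely among the large subunit genes. RPL19 was the highest, at 820 ± 41.8 FPKM in knockout and 994 ± 72.6 FPKM in control libraries (SD, n = 3 each), followed by RPL23A, in a row with its snoRNAs, at 570 ± 14.1 FPKM in knockout and 668 ± 47.8 FPKM in control libraries, and RPL7A. Besides the RPL4 fragment, the lowest were the RPL22 row, at 23.8 ± 1.05 FPKM in knockout and 30.1 ± 4.4 FPKM in control libraries, and the RPL36 row, at 51.7 ± 5.24 FPKM in knockout and 59.6 ± 8.57 FPKM in control libraries (SD, n = 3 each). Both low rows are shared with another gene. Across 77 rows of the main proteins the level was lower where the transcripts of the row were longer on average (Spearman rho −0.58) or more numerous (rho −0.39), as a description across genes of the same libraries. Since FPKM divides by length, rows that take in long transcripts can read low.

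A few large subunit genes did not follow the rest, and these were chosen after their values were seen. RPL29, a basic protein that also binds heparin, was at 85.9, 119 and 138 FPKM in knockout and 116, 341 and 331 FPKM in control libraries. The first control lies within the knockout range, and the log2 fold change of −1.07 has an SE of 0.44 (limma adjusted p = 0.190). RPL39, a small protein in the wall of the exit tunnel whose row includes SNORA69, was at 260, 273 and 183 FPKM in knockout and 194, 214 and 200 FPKM in control libraries. The third knockout is the lowest of all 6, and the log2 fold change of 0.21 did not pass (limma adjusted p = 0.423). RPL18 was level, at 140, 151 and 145 FPKM in knockout and 138, 148 and 149 FPKM in control libraries (log2 fold change 0.00, 95% interval −0.15 to 0.15). RPL35A, RPL38 and RPL15 were also near 0, with log2 fold changes of −0.07, −0.05 and −0.04.

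Of 31 small subunit rows, 30 were lower (46.6% of all genes) and 15 had every knockout below every control (14.7% of all genes). The median log2 fold change was −0.21. RPS10, a protein of the small subunit head, shares its row with NUDT3 and their read-through transcript (chr6:34417454-34426125, hg38). This row was at 41.4, 41.4 and 45.2 FPKM in knockout and 55.4, 67.6 and 58.6 FPKM in control libraries, with no overlap. The row fell by 29.5% (log2 fold change −0.49, SE 0.09, limma adjusted p = 0.0489), and the part of RPS10 in it was not tested. RPS6, the substrate of S6 kinase, was at 415, 420 and 427 FPKM in knockout and 501, 629 and 539 FPKM in control libraries, in a row with AL161909 (log2 fold change −0.40, limma adjusted p = 0.0672). RPS4X, an X-linked small subunit protein, was at 429, 443 and 426 FPKM in knockout and 518, 607 and 520 FPKM in control libraries (log2 fold change −0.34, limma adjusted p = 0.0680). In these rows the knockout values are below every control but the test was not passed.

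RPS12 had the highest mean of all members over the 6 libraries, at 778, 823 and 867 FPKM in knockout and 984, 1172 and 997 FPKM in control libraries (log2 fold change −0.35, limma adjusted p = 0.0814). The groups of RPS12 do not overlap, and those of RPS27 and RPS18, next in level within the small subunit, do not either. RPS27 was at 701 ± 44.6 FPKM in knockout and 890 ± 161 FPKM in control libraries, and RPS18 at 590 ± 22 FPKM in knockout and 759 ± 98.7 FPKM in control libraries (SD, n = 3 each). At the low end stood the RPS29 row, at 19.3 ± 0.761 FPKM in knockout and 21.9 ± 1.76 FPKM in control libraries, then RPS28, at 27.1 ± 2.84 FPKM in knockout and 34.6 ± 7.86 FPKM in control libraries (SD, n = 3 each), and the FAU row. RPS26, which lines the mRNA exit channel, was level, at 318, 336 and 369 FPKM in knockout and 333, 340 and 341 FPKM in control libraries (log2 fold change 0.01, 95% interval −0.16 to 0.18). Its knockout range encloses its controls.

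Ubiquitin and a ubiquitin-like protein, FUBI, are made as fusions with a pair of small subunit proteins. RPS27A, the ubiquitin fusion, was at 127, 122 and 133 FPKM in knockout and 151, 188 and 145 FPKM in control libraries, with no overlap (log2 fold change −0.33, limma adjusted p = 0.129, and −0.21 without the second control). FAU, which encodes the FUBI fusion of the small subunit protein eS30, shares a row with SYVN1 and was at 29, 30.7 and 35.8 FPKM in knockout and 29.4, 38.7 and 33.8 FPKM in control libraries. The FAU row overlaps between groups (log2 fold change −0.09, limma adjusted p = 0.680).

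**Figure D4:**
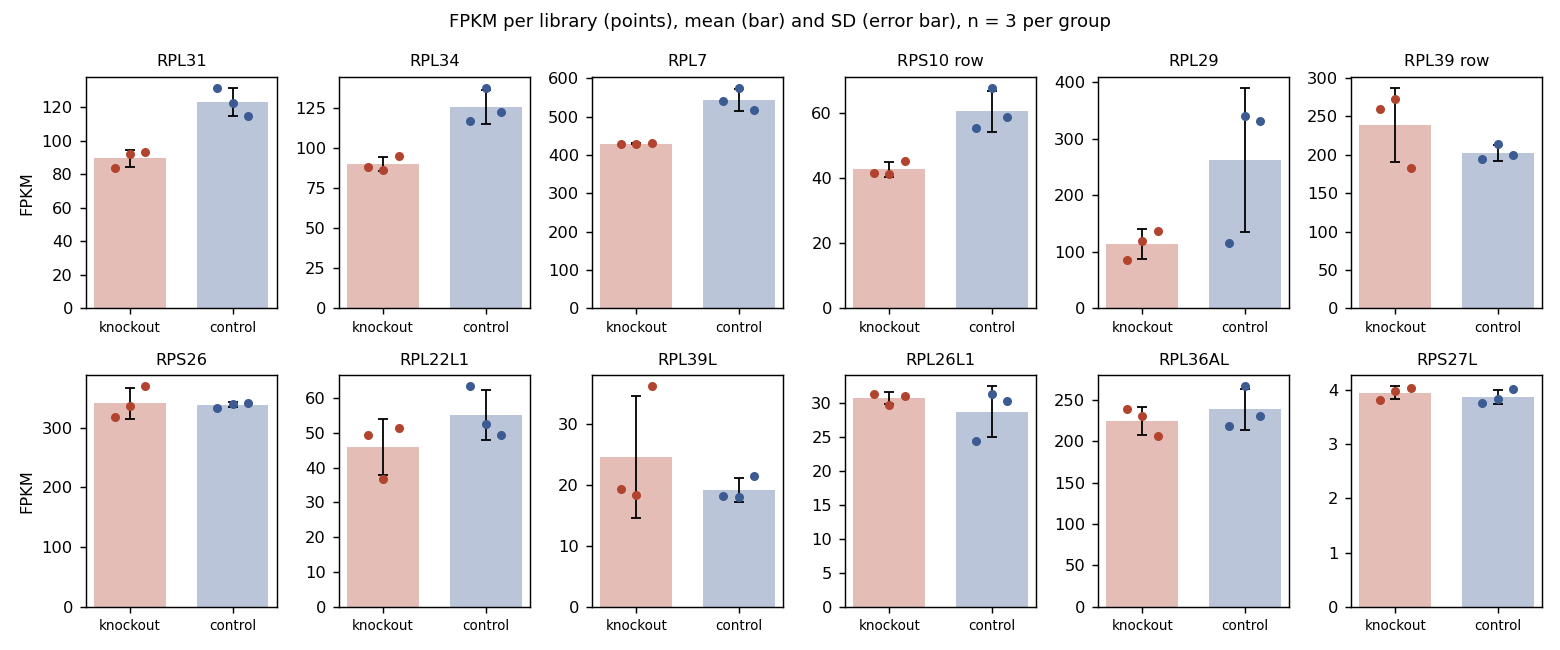
FPKM of 12 rows in each library (points) with group means (bars, from 0) and SD, knockout left and control right: RPL31, RPL34, RPL7 and the RPS10 row, which passed the test, and RPL29, RPL39, RPS26 and 5 paralogs, which did not. The groups are apart in the first 4 rows and overlap in the other 8.

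Paralogs were compared with the genes they resemble. Of 8 paralogs, 6 were tested, 3 were lower and 3 higher, 0 passed at an adjusted p below 0.05, 1 was lower at an unadjusted p below 0.05 (limma), and the median log2 fold change was −0.03. RPL7L1, which takes part in ribosome assembly in the nucleolus, was at 15.1, 13.9 and 14.4 FPKM in knockout and 18, 16.6 and 15.5 FPKM in control libraries. It was the paralog with every knockout below every control (log2 fold change −0.19, limma adjusted p = 0.184). RPL22L1, which in mice is repressed by RPL22, was at 49.5, 36.7 and 51.5 FPKM in knockout and 63.3, 52.5 and 49.5 FPKM in control libraries (log2 fold change −0.27, limma adjusted p = 0.324). RPL36AL, at 239, 231 and 206 FPKM in knockout and 219, 266 and 231 FPKM in control libraries, was the most abundant paralog. These 2 overlap between groups.

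RPL39L, best known from testis and some cancers, was at 19.2, 18.3 and 36.1 FPKM in knockout and 18.2, 17.9 and 21.4 FPKM in control libraries. Only the third knockout is above all controls for RPL39L, and the same library has the lowest RPL39 row (log2 fold change of RPL39L 0.28, limma adjusted p = 0.525, and −0.02 without the third knockout). RPL26L1 was at 31.3, 29.6 and 31.0 FPKM in knockout and 24.4, 31.3 and 30.3 FPKM in control libraries. RPS27L was at 3.82, 3.99 and 4.04 FPKM in knockout and 3.76, 3.84 and 4.02 FPKM in control libraries, so its groups overlap almost wholly (log2 fold change 0.02, and −0.018 with upper-quartile scaling). The muscle paralog RPL3L was at 0.128, 0.133 and 0.127 FPKM in knockout and 0.0679, 0.118 and 0.0469 FPKM in control libraries. RPL3L is the member with every knockout above every control, at a level under the filter and not tested. RPL10L, a testis paralog, was listed at the floor of 0.0001 FPKM in all 6 libraries.

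Within a library, the scaling of the library largely cancels in the ratio of a paralog to its main gene. The log2 ratio was taken after adding 1 FPKM to both genes, so it does not cancel fully at low levels. With 3 libraries against 3 an exact test cannot give a p below 0.1. RPS27L was at 0.564% of RPS27 in knockout and 0.435% in control libraries, with every knockout ratio above every control ratio (difference of log2 ratios 0.35, exact two-sided permutation p = 0.1, 0.2 after Benjamini-Hochberg adjustment over 2 pairs). Without the second control this difference was 0.21, and with 0.1 FPKM added instead of 1 it was 0.36. The rows of RPS27L and RPS27 differ in mean transcript length (1677 and 504 bases) and GC content (41.8% and 51.2%). The part of the length and GC trend described below in their ratio was not tested. RPL7L1 was at 3.36% of RPL7 in knockout and 3.06% in control libraries (difference 0.14, exact permutation p = 0.2, adjusted 0.2). In 4 further pairs the main gene sits in a shared row, and their ratios are a description. The log2 ratio of RPL26L1 to the RPL26 row was higher by 0.41 in the knockout, with no overlap, and the ratios of RPL36AL, RPL39L and RPL22L1 to their main rows differed by 0.10, 0.07 and 0.05 with overlap.

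Some members are known from disease of blood cells. RPL5, RPL10, RPL11 and RPL22 are mutated or deleted in T cell leukaemia. All 4 had every knockout below every control, against 48.8% of all member rows and 14.7% of all genes. By limma 0 passed the threshold. At an unadjusted p below 0.05 (limma), 4 were lower, against 40 of 84 member rows and 10.7% of all genes. The median log2 fold change of these 4 genes was −0.33. RPL11 was at 279, 285 and 284 FPKM in knockout and 336, 438 and 316 FPKM in control libraries (log2 fold change −0.35, limma adjusted p = 0.151). RPL10 and RPL22, in shared rows, had log2 fold changes of −0.29 and −0.32 (limma adjusted p = 0.0925 and 0.140). Without the second control, the log2 fold change of RPL11 was −0.21 and that of the RPL22 row −0.21. Of 13 genes mutated in Diamond-Blackfan anaemia, a failure of red cell production, 12 were lower, 1 (the RPS10 row) passed the test, and the median was −0.31. RPL5 and RPL11 belong to both lists. In 5 of the 13 (38.5%) every knockout was below every control, against 48.8% of all member rows and 14.7% of all genes. RPS24 was at 129, 127 and 128 FPKM in knockout and 146, 184 and 148 FPKM in control libraries (log2 fold change −0.31, limma adjusted p = 0.119, and −0.20 without the second control). RPS19, the gene most often mutated in that disease, ranged from 110 to 179 FPKM in knockout and from 160 to 177 FPKM in control libraries.

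Many members could not be read alone. A small nucleolar or micro RNA within an intron shares the row of 19 members, among them RPL3, RPL5, RPL8, RPL10, RPL13, RPL21, RPL23A, RPL27A, RPL28, RPL32, RPL39, RPLP2, RPS3, RPS3A, RPS13, RPS20 and RPSA. Another gene shares the row of 18, among them RPL4, RPL7A, RPL17, RPL22, RPL23, RPL26, RPL36, RPL36A, RPL13A, RPL41, RPS2, RPS6, RPS10, RPS15A, RPS29 and FAU. The kind of row made little difference to the direction. Of 48 rows of 1 gene, 43 were lower (median −0.24). Of 19 rows with a small RNA, 18 were lower (median −0.28), and of 17 rows with another gene, 17 were lower (median −0.20).

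Across all genes the log2 fold change was related to base composition and length. The Spearman rho with transcript GC content was −0.39 and with length 0.20 over 11021 genes. Among 83 member rows these were 0.07 and 0.03, and the members' median GC content was 49.8%, against 49.3% for all genes, while their median length was 866 bases, against 1471. With the length and GC trend removed from the libraries, 75 of 83 rows were lower, and the median log2 fold change was −0.17. In that fit 5 of the 83 rows passed the test (limma), beside 725 of all 11021 genes. Without the second control as well, 73 were lower, 1 passed beside 236 of all 11021 genes, and the median was −0.13. In neither fit was the share of calls higher among members than among all genes. Members counted as having an oligopyrimidine start had a median log2 fold change of −0.28 (46 main genes). Those with a listed start but not so counted had −0.25 (16 main genes), and the count depends on the annotated base.

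A list of 20 other genes, most of them of translation, was drawn up as mRNAs with the motif. Their starts were not checked here, and the list also holds genes outside translation. Of these 20 listed genes 11 were tested, since the other 9 share rows, and 8 were lower, 1 fell and 0 rose, with a median log2 fold change of −0.05. EEF1A1, the elongation factor that brings aminoacyl-tRNAs to the ribosome, was at 1290, 1292 and 1369 FPKM in knockout and 1808, 1862 and 1752 FPKM in control libraries. EEF1A1 fell with no overlap (log2 fold change −0.46, SE 0.06, limma adjusted p = 0.0214). The call of EEF1A1 was lost with any knockout or the third control left out (limma adjusted p up to 0.124) and without a filter on low values (0.106). EEF1D and EIF3F, next by p, overlapped between groups, at 18.9 ± 1.15 FPKM in knockout and 20.5 ± 0.996 FPKM in control libraries, and at 18.4 ± 2.80 FPKM in knockout and 21.0 ± 1.55 FPKM in control libraries (SD, n = 3 each).

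Genes that carry or regulate ribosomal proteins gave 0 calls by limma. Of 8 carriers and chaperones 5 were tested, led by BCCIP, a chaperone of RPL23, at 35.9, 40.4 and 35.4 FPKM in knockout and 29.3, 30.5 and 30.2 FPKM in control libraries (log2 fold change 0.30, limma adjusted p = 0.0729). AAMP, the human relative of the yeast chaperone of Rpl10, had a log2 fold change of −0.25 (limma adjusted p = 0.0840), and both have no overlap. HEATR3, the carrier of RPL5, overlapped. Among 8 tested genes that control ribosomal protein mRNAs, EIF4EBP1, the translation repressor that mTOR phosphorylates, was at 30.4, 29.6 and 32.8 FPKM in knockout and 38.3, 47.0 and 46.2 FPKM in control libraries, with no overlap (log2 fold change −0.48, limma adjusted p = 0.0540). LARP1 was at 29.3, 25.9 and 25.3 FPKM in knockout and 9.45, 7.26 and 28.9 FPKM in control libraries, so the third control lies among the knockouts. LARP4 overlapped as well.

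Of 6 tested genes of the stress response that unassembled RPL5 and RPL11 can trigger through MDM2, 0 passed. CDKN1A, the cell cycle inhibitor p21, was at 2.15, 2.89 and 1.48 FPKM in knockout and 0.709, 0.742 and 1.1 FPKM in control libraries, with no overlap (log2 fold change 0.76, limma adjusted p = 0.0729). TIGAR overlapped between groups.

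Processed pseudogenes, intronless copies of ribosomal protein mRNAs, are the nearest sequences to the members and can share their reads. The table named 1125 of them, of which 126, copies of 47 genes, were tested. Of these 119 were lower (46.6% of all genes), 60 had every knockout below every control (14.7% of all genes), and the median log2 fold change was −0.30. By limma 2 pseudogenes, or 1.59%, fell and 0 rose, against 1.3% and 1.38% of all genes, a share of calls near that of all genes. RPL23AP2 was at 15.3, 15.5 and 14.8 FPKM in knockout and 21.9, 23.6 and 25 FPKM in control libraries (log2 fold change −0.59, limma adjusted p = 0.0171), and RPL3P2 fell as well (log2 fold change −0.42, limma adjusted p = 0.0436). In all, 20 pseudogenes averaged at least 100 FPKM. The sum over all named pseudogenes was 5485, 5538 and 5930 FPKM in knockout and 6522, 7385 and 6799 FPKM in control libraries. Of the FPKM of members and pseudogenes together, leaving out rows with another gene, pseudogenes took 27.0% to 27.7% in knockout and 27.2% to 28.1% in control libraries, and these ranges overlap.

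For 7 of 60 genes with named pseudogenes, these summed to more than the gene: RPL9, RPS28, RPL14, RPS7, RPSA, RPL21 and RPL7. Genes whose row is shared with another gene were left out of this count. Among those, single pseudogenes also exceeded the row: RPL41P1 averaged 310 FPKM, against 155.9 FPKM for the RPL41 row. RPL22P1 averaged 115.6 FPKM against 26.95 FPKM for the RPL22 row, and RPL26P19 89.11 FPKM against 83.57 FPKM for the RPL26 row. The pseudogenes of RPL9 averaged 845 FPKM over the 6 libraries, against 110 FPKM for RPL9 itself, and the pseudogene of RPS28 averaged 234 FPKM, against 30.9 FPKM. RPL7 had 563 FPKM in its pseudogenes and 487 FPKM in its own row. No source used here gives how reads that fit several loci were assigned, so the low levels of RPL9, RPS28 and the RPL22 row are uncertain. With pseudogene and shared rows summed into their genes, 80 of 85 members were lower, and the median log2 fold change was −0.25. There 4 members passed the test (limma), beside 316 among all genes. In that fit RPL34, RPL31 and RPL7 passed, at log2 fold changes of −0.49, −0.44 and −0.28, and RPS10 did not (−0.49, limma adjusted p = 0.0734).

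**Figure D5:**
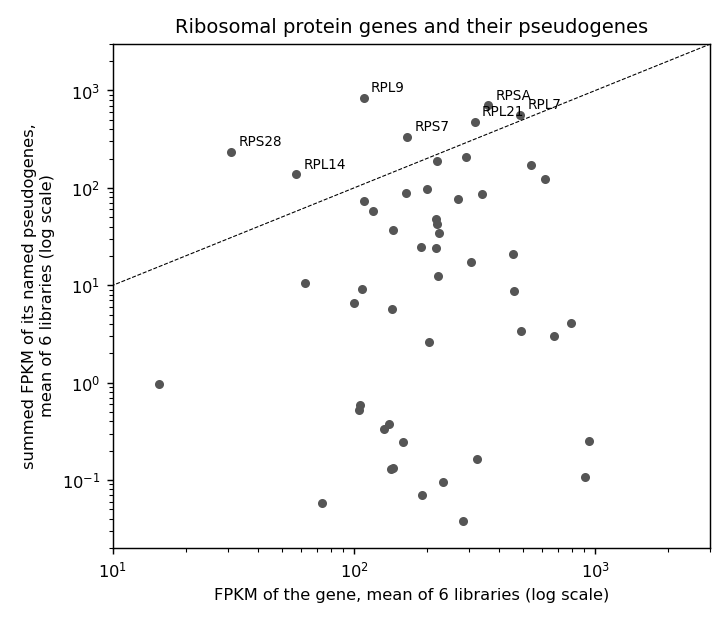
Mean FPKM over 6 libraries of the summed pseudogenes of a gene (vertical axis, log scale) against that of the gene itself (horizontal axis, log scale) for the 50 genes whose pseudogenes summed to over 0.01 FPKM. Genes whose row is shared with another gene are left out, and the line marks equal levels. The 7 named genes lie above the line, RPL9 and RPS28 farthest from it.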

How the data were processed

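RNA-seq of 3 FOXO3 knockout and 3 control libraries was analysed from the deposited gene table, whose values are FPKM per the file headers. Bowtie 0.12.9, Cufflinks 2.1.1, HTSeq and the hg38 build are listed, per the submitters' processing notes, without their roles. Per the labels' protocols, libraries came from total RNA with a SMARTER kit. Strand setting, read assignment between copies and guide sequences are in none of the sources used here. Of 56418 rows, 60.7% to 62.4% per library stood at a floor of 0.0001 FPKM, 1527 named several genes, and 4865 identical repeats were dropped before rows were summed to 47102 names. The steps between low FPKM values gave depths of 4.26 to 4.79 gigabases in knockout and 4.37 to 5.71 in control libraries, with 76.5% to 77.9% of low values within 0.1 of a whole step (20% by chance), so no count test was run.

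Names at a mean of at least 1 FPKM (11162) were tested with limma 3.58.1 (R 4.3.3, variance trend, two-sided, Benjamini-Hochberg over all) on log2(FPKM + 1), a scale that understates changes of low genes. In all, 299 genes (2.68%) passed an adjusted p of 0.05, 154 higher and 145 lower in the knockout (170 and 259 after upper-quartile scaling). In simulated knockout and control libraries of 11162 genes, 58% of true 1.5-fold and 94% of true 2-fold changes were found, and 14 of 188 calls were false. The simulation drew noise independently for each gene and held no true change below 1.5-fold. It does not show how often changes as small as the family's median would be found. Paralog ratios used exact permutation tests (scipy 1.17.1). Lengths, GC content and gene positions are from GENCODE release 29, and starts from RefSeq. The members, lists and alternatives were chosen with earlier results of these data known, so no list was tested as a whole. Named genes were FOXO3, per subunit the 6 members of smallest p and the 3 highest and lowest, all paralogs, any member not overlapping and higher in the knockout, up to 4 per disease group, up to 3 per list of other genes, the fusions and members in shared rows. RPL29, RPL39, RPL18, RPL35A, RPL38, RPL15, RPS26, RPS19 and the pseudogenes were added after their values were seen. Some members and listed genes are counted but not reported here by name. Python 3.11.15, pandas 2.3.3 and matplotlib 3.10.9 made tables and plots.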

Additional observations from a re-analysis of the deposited data

How the results depend on the processing

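The lower level of ribosomal protein genes kept a negative median in every alternative run, and the number of calls varied. Between 71 and 81 rows were lower (76 to 80 with 1 library left out). The median log2 fold change was −0.15 after quantile normalization and −0.13 with the trend with length and GC content removed and the second control left out, and −0.32 to −0.19 with 1 library left out. The difference in the family's share was −1.35 percentage points with shared rows counted, and −0.97 to −0.68 with 1 library left out. Against 4 member calls by limma, there were 0 without a filter (35 at an unadjusted p below 0.05). There was 1 without a variance trend and 1 after trend removal without the second control, beside 327 and 236 among all genes. Members had 8 calls with a minimum of 5 FPKM, with upper-quartile scaling and with quantile normalization. All genes had 316 (of 6158 tested), 429 and 542 calls in those fits. Calls with 1 library left out ranged from 0 to 14, with 14 without the first control and 0 without any other (22 to 44 at an unadjusted p below 0.05 among these). Calls among all genes numbered 193 without a filter, 725 after trend removal and 68 to 929 with 1 library left out, with 929 without the first control. Member calls did not always vary along with those of all genes. Without a variance trend they fell from 4 to 1, while calls among all genes rose from 299 to 327. The unadjusted counts of these fits were not taken over all genes. The removal of the trend and the summing of pseudogene rows were chosen after seeing the data. The causes were not tested.

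Replicate numbers did not pair the samples: deviations of same-numbered libraries correlated at 0.0984, −0.0392 and 0.0162. A fit with the replicate number as a block called 27 genes and 0 members by limma (42 members at an unadjusted p below 0.05), and EEF1A1 did not pass in it (limma adjusted p = 0.114).

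RPS27L changed sign to −0.018 with upper-quartile scaling, −0.028 after quantile normalization, −0.20 after trend removal and −0.13 with the second control also left out. RPL36AL was at 0.0585 after quantile normalization and the FAU row at 0.043 after trend removal without the second control. With 1 library left out, signs changed for FOXO3 (−0.12 to 0.0003), RPL39L (−0.024 to 0.45), RPL26L1 (−0.0056 to 0.17), HEATR3 (−0.31 to 0.038), FAU (−0.19 to 0.0062) and the log2 ratios of RPL22L1 to RPL22 (−0.090 to 0.23) and RPL39L to RPL39 (−0.42 to 0.34).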
